A study of Mus musculus with 6 samples.

Results

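In LAPC-4 tumors, 25 of 14196 well-counted genes were higher by at least 1.25 times in every mouse fed the low glycemic index (LoGI) diet than in any mouse fed the high glycemic index (HiGI) diet. These 25 genes were chosen by their own levels in all 6 tumors. A gene was kept if it had at least 20 reads in every tumor and if its lowest level in the 3 LoGI tumors was at least 1.25 times its highest level in the 3 HiGI tumors. Levels are given as CPM, the reads of a gene divided by the total of its tumor and multiplied by 1000000. The table lists 60649 genes in all, of which 36617 had any read. As the levels chose the genes, the difference between diets is described for them and is not tested.

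LAPC-4 cells come from a human prostate cancer, respond to androgen and carry an androgen receptor without mutations. They were grown in the flank of male SCID (CB.17 scid/scid) mice, bought at 6 to 8 weeks of age, which lack B and T cells. All mice ate the HiGI diet until their tumors averaged 200 mm3, were then housed singly and randomized to a diet, and were sacrificed when tumors reached 800 mm3, so that the time on diet was not fixed. Carbohydrate supplied 48% of the energy of either Western diet, as sucrose in HiGI and mainly as the high-amylose starch Hylon-VII in LoGI. Tumors 16, 20 and 26 were HiGI, and tumors 19, 27 and 28 were LoGI. One cell line was used, and each tumor came from a separate mouse by the study's account.

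A starch rich in amylose is digested slowly, and glucose and insulin in blood rise more slowly after it than after sucrose. Insulin and insulin-like growth factors act on receptors that drive growth and survival pathways in tumor cells. A gene that is higher on one diet can have more RNA per cell or come from a larger share of the cells, and a bulk tumor sample cannot tell these apart. The counts are listed by human Ensembl identifier, and no human gene names were used here. The roles of the 25 genes, their gene families and their positions are therefore not given, and the gene lists for androgen response, metabolism, cell cycle and cell type markers were not looked up. Below, 2 genes are given by identifier, the one with the widest gap between diets and the one with the highest mean level in LoGI tumors, and the others by their rank from 1 to 25 in the size of that gap.

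The libraries held 18749813 to 21550812 reads, and neither diet was the deeper one throughout. For every pair of tumors the chi-square per degree of freedom, which is near 1 when 2 counts differ by sampling only, was 4.91 or more. No library was thus a mere resampling of another, though the value cannot show that the libraries came from different tumors. This value was 4.91 to 12.5 within a diet and 15.5 to 28.2 between diets. The first principal component of log2 CPM, with 51.3% of the variance, set all HiGI tumors apart from all LoGI tumors, and the second, with 14.7%, set HiGI tumor 26 apart from HiGI tumors 16 and 20.

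The 25 genes were 0.176% of the 14196 genes with enough reads. The mirrored rule, with the lowest HiGI level at least 1.25 times the highest LoGI level, held for 392 genes, or 2.76%. The imbalance grew with the size of the gap. Without a minimum gap, the diets did not overlap on 857 genes higher in LoGI tumors (6.04%) and on 1862 genes lower in them (13.1%). At a gap of 1.5 or more there were 3 genes higher and 229 lower, and at 2 or more there were 0 higher and 125 lower. By column totals, genes set apart by diet were thus more often lower than higher in LoGI tumors at every gap counted. The gaps of the higher genes were small. With these totals, the median ratio of LoGI to HiGI means over all 14196 genes was 0.982, just under equal levels. The genes lower in LoGI tumors were not recounted under another scaling.

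**Figure D1:**
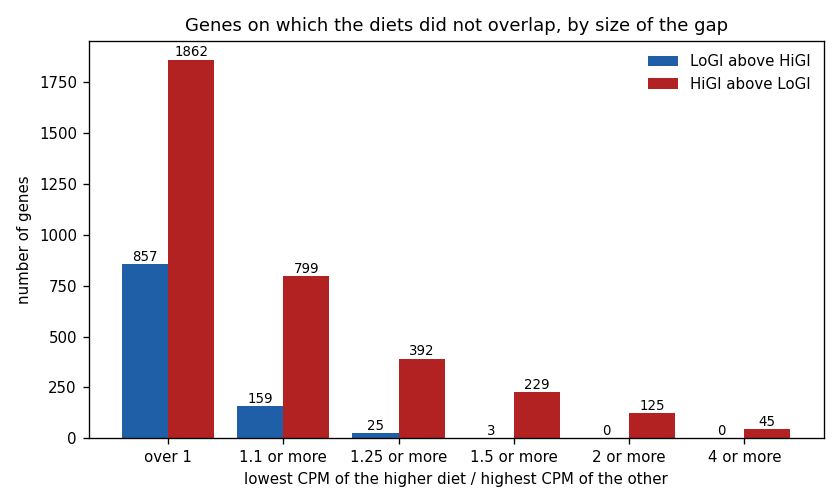
Number of well-counted genes (y axis, 20 reads or more in each tumor) on which the 3 tumors of one diet all lay above the 3 of the other, by the ratio between the nearest tumors of both diets (x axis). Genes higher in LoGI tumors (blue) went from 857 to 0 as the gap widened to 2, while 125 genes lower in LoGI tumors (red) remained at that gap.

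The widest gap belonged to ENSG00000116774.12. HiGI tumors 16, 20 and 26 gave 169, 137 and 127 reads of it, and LoGI tumors 19, 27 and 28 gave 344, 318 and 269. The lowest LoGI tumor stood 1.70 times above the highest HiGI tumor, with a 95% counting interval of 1.39 to 2.07 from the exact binomial distribution of the reads of those 2 tumors. Its level was 7.22 ± 0.702 CPM (SD, n = 3) in HiGI tumors and 15.5 ± 2.32 CPM (SD, n = 3) in LoGI tumors, a ratio of means of 2.15. Tumor 19 was the highest of the 6, and without it the ratio of means was 1.97.

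Over all 25 genes, the mean LoGI level was 1.39 to 2.16 times the mean HiGI level, with a median of 1.72. Among all 14196 genes with enough reads, the median of this ratio was 0.982. The gap between the nearest tumors of the diets ran from 1.26 to 1.70. For 20 of the 25 genes, the difference in CPM between those nearest tumors was larger than the larger of the 2 standard deviations within a diet. The remaining 5 were the genes ranked 7, 8, 10, 18 and 21. On these the LoGI tumors differed most among themselves, and a wide spread within a diet lowers this measure by its definition.

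**Figure D2:**
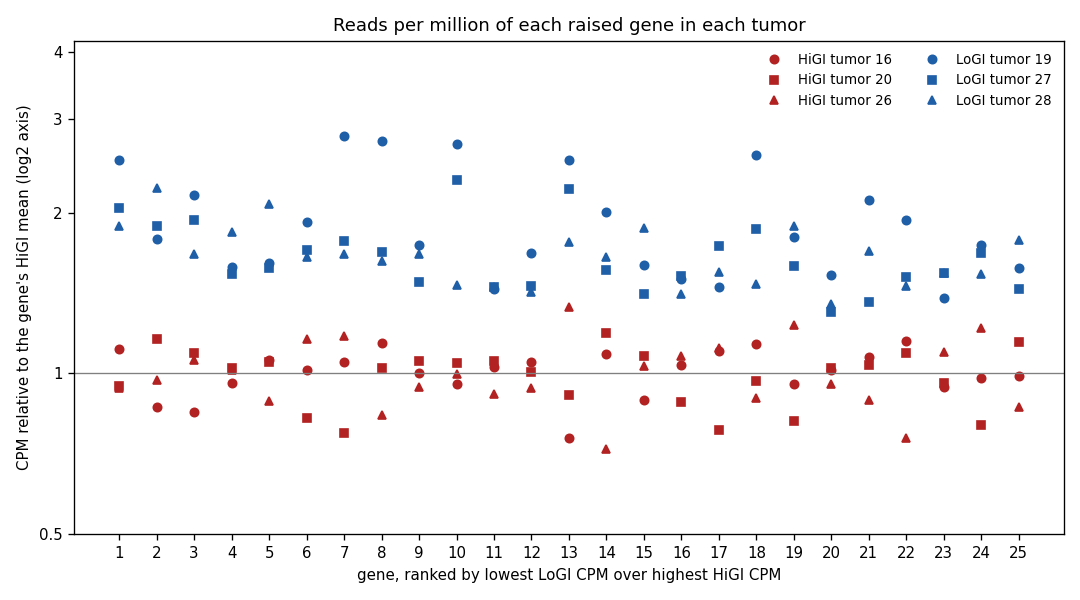
Level of each of the 25 genes in each tumor, as CPM divided by the mean of the 3 HiGI tumors (y axis, log2 scale), for genes ranked by the gap between diets (x axis), with HiGI tumors in red and LoGI tumors in blue. All blue points lie above all red points of the same gene, as the rule required, and LoGI tumor 19 (blue circle) lies far above LoGI tumors 27 and 28 on genes 7 and 8.

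The 25 genes were expressed at a low level. Their mean over the 6 tumors had a median of 5.37 CPM, against 25.4 CPM for all genes with enough reads, and none exceeded 42.9 CPM. A mean under 5 CPM was found for 12 of the 25 genes, or 48%, and for 19.4% of all genes with enough reads. No gene of the 25 fell between 20 and 30 CPM. They were read in 3 groups by level, with 7 genes above 30 CPM, 4 between 10 and 20 CPM and 14 under 10 CPM. The 7 genes of the highest level carried 69.5% of all reads on the 25 genes.

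Among the 7 genes above 30 CPM, ENSG00000137975.8, of rank 8, had the highest mean in LoGI tumors. HiGI tumors 16, 20 and 26 held 684, 582 and 446 reads of it, against 1475, 1036 and 911 in LoGI tumors 19, 27 and 28. The nearest tumors of the diets differed 1.42-fold (95% counting interval 1.28 to 1.57). LoGI tumor 19 stood well above the other LoGI tumors, and the LoGI level of 57.2 ± 17.6 CPM (SD, n = 3) varied more than the HiGI level of 28.5 ± 4.39 CPM (SD, n = 3). The ratio of means was 2.01, and 1.65 without tumor 19.

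The gene ranked 10 also varied widely among LoGI tumors. Its reads were 529, 548 and 491 in HiGI tumors 16, 20 and 26, against 1344, 1305 and 759 in LoGI tumors 19, 27 and 28. In CPM these were 70.7, 60.6 and 38.4 in LoGI tumors, so that tumor 28 lay well below both others. The ratio of means was 2.15, with levels of 26.2 ± 1.14 CPM (SD, n = 3) and 56.5 ± 16.5 CPM (SD, n = 3).

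The gene ranked 5 had its highest level in tumor 28. Its reads were 487, 459 and 364 in HiGI tumors 16, 20 and 26, against 670, 741 and 894 in LoGI tumors 19, 27 and 28. Its ratio of means of 1.75 became 1.82 without tumor 19. The tumor that was highest therefore differed between genes of similar level.

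The other 4 genes of this group varied less among LoGI tumors than genes 5, 8 and 10. For genes 12, 20 and 24 the chi-square per degree of freedom in LoGI tumors was still 6.91, 5.43 and 3.01. Gene 11 had 559, 544 and 443 reads in HiGI tumors, against 707, 808 and 738 in LoGI tumors 19, 27 and 28. Scaled to library totals, its LoGI level of 37.3 ± 0.165 CPM (SD, n = 3) had the smallest coefficient of variation in LoGI tumors of all 25 genes, 0.442%. This spread was far under what counting alone would give, since the chi-square per degree of freedom was 0.0146. The agreement of its 3 LoGI tumors was thus closer than their depth can resolve.

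Gene 12 had 608, 553 and 484 reads in HiGI tumors, against 878, 863 and 771 in LoGI tumors. Gene 20 had 563, 539 and 472 reads in HiGI tumors, against 766, 739 and 700 in LoGI tumors, and its ratio of means, 1.39, was the smallest of the 25. Gene 24 had 478, 370 and 528 reads in HiGI tumors, against 766, 838 and 702 in LoGI tumors. On gene 24 the HiGI tumors differed more than the LoGI tumors, with a coefficient of variation of 20.9% against 6.34%, and HiGI tumor 26 came nearest to the LoGI tumors.

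Between 10 and 20 CPM lay genes 1, 6, 7 and 18, with a median ratio of means of 2.02. Gene 6 gave 291, 224 and 295 reads in HiGI tumors 16, 20 and 26, against 496, 499 and 444 in LoGI tumors 19, 27 and 28. Its LoGI tumors varied less than those of genes 1, 7 and 18, with a coefficient of variation of 7.98%. Gene 7 had 155, 108 and 154 reads in HiGI tumors, against 370, 267 and 231 in LoGI tumors. Gene 18 had 305, 247 and 215 reads in HiGI tumors, against 623, 514 and 371 in LoGI tumors. On genes 7 and 18 tumor 19 was the highest and tumor 28 the lowest LoGI tumor, and without tumor 19 their ratios of means went from 2.08 to 1.72 and from 1.97 to 1.67.

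The 14 genes under 10 CPM had between 21 and 279 reads in a tumor. Gene 2 gave 22, 28 and 22 reads in HiGI tumors 16, 20 and 26, against 41, 49 and 53 in LoGI tumors 19, 27 and 28. Gene 3 had 27, 33 and 30 reads in HiGI tumors, against 62, 63 and 50 in LoGI tumors. These genes had the widest gaps after gene 1, 1.54 and 1.53, but the counting intervals of both gaps reached under 1, at 0.929 and 0.969.

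Gene 13 had the largest ratio of means of all 25 genes, 2.16, from 21, 24 and 33 reads in HiGI tumors, against 63, 63 and 46 in LoGI tumors. Its HiGI tumors varied most of any of the 25 genes, with a coefficient of variation of 29.9%. Gene 4 was the most even in HiGI tumors, with 82, 83 and 77 reads there, against 122, 134 and 147 in LoGI tumors. Its gap of 1.498 had a counting interval of 1.13 to 1.99.

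Gene 14 had 83, 86 and 49 reads in HiGI tumors, against 138, 122 and 118 in LoGI tumors, so that its gap of 1.32 was set by HiGI tumors 16 and 20, well above HiGI tumor 26. Gene 21 had 157, 144 and 116 reads in HiGI tumors, against 279, 204 and 233 in LoGI tumors, and its lowest LoGI tumor was 27. The other 8 genes of this group, ranked 9, 15, 16, 17, 19, 22, 23 and 25, had fewer than 100 reads in every tumor, as did genes 2, 3 and 13.

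Among them, gene 9 was even on both diets, with 37, 37 and 31 reads in HiGI tumors, against 58, 56 and 58 in LoGI tumors. Gene 16 had the fewest LoGI reads of the 25 genes, with 34, 39 and 33, against 26, 21 and 24 in HiGI tumors. Gene 17 gave 31, 21 and 28 reads in HiGI tumors, against 37, 50 and 41 in LoGI tumors. On genes 16 and 17 the diets were set apart by few reads.

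Gene 19 had 47, 38 and 54 reads in HiGI tumors, against 80, 80 and 87 in LoGI tumors. Gene 22 had 63, 57 and 37 reads in HiGI tumors, against 96, 85 and 75 in LoGI tumors, and HiGI tumor 26 was well below the other HiGI tumors, as on gene 14. Gene 23 had 58, 56 and 60 reads in HiGI tumors, against 77, 97 and 89 in LoGI tumors. Genes 15 and 25 were highest in LoGI tumor 28, with 67 and 69 reads there and no more than 39 and 45 in a HiGI tumor. For the 11 genes under 100 reads in every tumor, none of the counting intervals of the gap lay wholly above 1.

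The counting interval of the gap lay above 1 for 13 of the 25 genes, among which were all 11 genes over 10 CPM and genes 4 and 21. For 4 genes it lay above 1.25. These intervals cover counting error only, as reads were not marked by molecule, and they were computed on the reads that chose the genes.

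**Figure D3:**
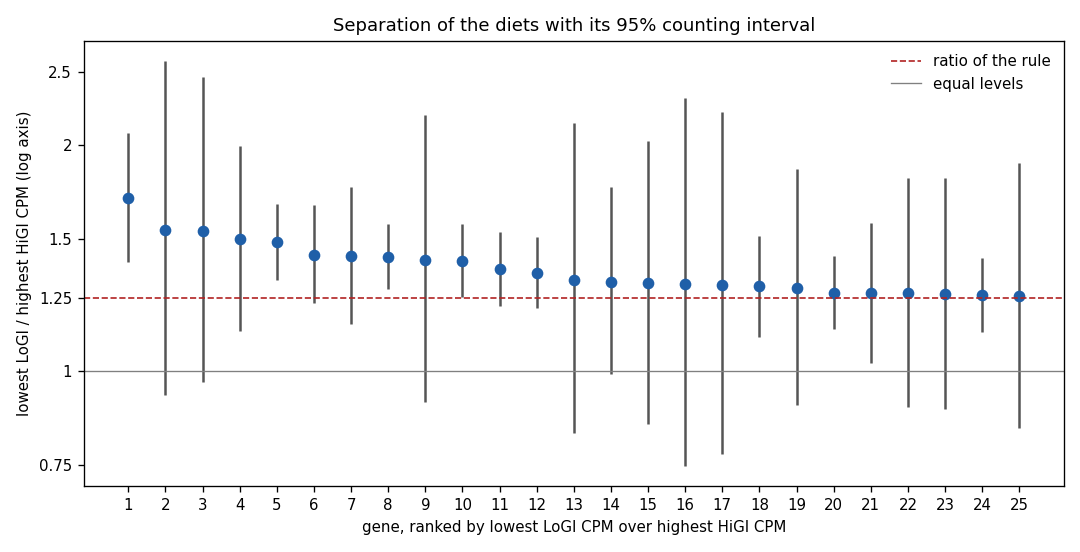
Ratio of the lowest LoGI level to the highest HiGI level (points, y axis, log scale) with its 95% counting interval (bars) for the 25 genes in order of that ratio (x axis). The dashed line marks the 1.25 of the rule, and 12 of the 25 bars reach 1 (grey line) or below.

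The rule cut through a dense part of the ranking. The last 3 genes inside it had ratios of 1.26, 1.26 and 1.26, and the first 3 outside had 1.25, 1.24 and 1.24, the first of them just under the limit. Another 24 genes reached the ratio but had 10 to 19 reads in their least-read tumor.

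Summed over the 25 genes, the level was 254 ± 8.48 CPM (SD, n = 3) in HiGI tumors and 444 ± 55.4 CPM (SD, n = 3) in LoGI tumors, a ratio of 1.74. As a share of all reads, the genes took 0.0264% of tumor 16, 0.0251% of tumor 20 and 0.0248% of tumor 26 on the HiGI diet. On the LoGI diet they took 0.0507% of tumor 19, 0.0422% of tumor 27 and 0.0403% of tumor 28. The Clopper-Pearson 95% interval of tumor 19 went from 0.0497% to 0.0517%, that of tumor 27 from 0.0413% to 0.0430%, and that of tumor 16, the highest HiGI tumor, from 0.0257% to 0.0271%. That of HiGI tumor 26 went from 0.0241% to 0.0255%. The intervals did not overlap between LoGI tumors 19 and 27, nor between HiGI tumors 16 and 26. On shares of column totals, LoGI tumors 19 and 27 thus differed by more than counting error. For HiGI tumors 16 and 26 the intervals were close, 0.0257% against 0.0255% at their nearest ends. The TMM scaling factors of edgeR for these 2 tumors were 1.034 and 1.003. Whether their intervals stay apart with totals scaled in this way was not tested.

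The order among LoGI tumors was not used by the rule. Tumor 19 was the highest LoGI tumor for 15 of the 25 genes, or 60%, against 34.2% of all genes with enough reads. Tumor 28 was the highest for 7 genes (28%, against 32.0% of all) and tumor 27 for 3 (12%, against 33.8%). The order 19 over 27 over 28 was found for 11 genes, or 44%, against 23.0% of all. The lowest LoGI tumor was 28 for 12 genes, or 48%, which was near the 46.5% of all genes. In HiGI tumors, the highest was 16 for 7 genes (28%, against 44.1% of all), 20 for 10 (40%, against 28.7%) and 26 for 8 (32%, against 27.2%).

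Most of the excess in tumor 19 lay in 5 genes picked for their spread among LoGI tumors, so that this follows in part from the choice. On gene 10 of these, tumor 28 lay well below tumors 19 and 27. For genes 7, 8, 10, 18 and 21, set apart here after their values were seen, the highest LoGI level was at least 1.5 times the lowest, and tumor 19 was the highest for all 5. Such a spread among LoGI tumors was found for 10.2% of all genes with enough reads. Summed, these 5 genes had 86.9, 81.5 and 75.8 CPM in HiGI tumors 16, 20 and 26, and 215, 154 and 127 CPM in LoGI tumors 19, 27 and 28. The other 20 genes summed to 177, 170 and 172 CPM in HiGI tumors, and to 292, 267 and 276 CPM in LoGI tumors. Without tumor 19 the ratio of the summed means was 1.73 instead of 2.03 for the 5 genes, and 1.57 instead of 1.61 for the other 20.

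**Figure D4:**
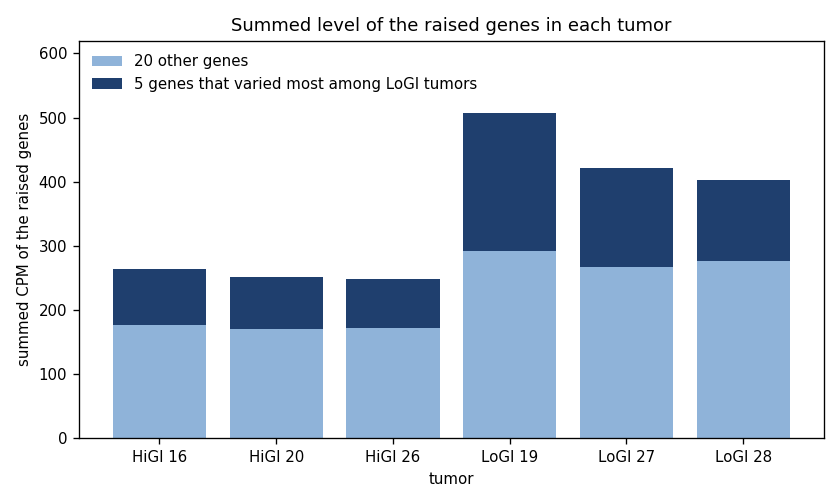
Summed CPM of the 25 genes (y axis) in each tumor (x axis), split into the 5 genes that varied most among LoGI tumors (dark) and the other 20 (light). The dark part falls from 215 to 127 CPM between LoGI tumors 19 and 28, while the light part stays between 267 and 292 CPM in all LoGI tumors.

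The spread within a diet entered the rule, since the lowest LoGI and the highest HiGI tumor set the gap, so it is only described. By coefficient of variation it was above that of all genes with enough reads, and by chi-square below it. The median coefficient of variation was 11.7% in LoGI tumors and 12.2% in HiGI tumors, against 9.41% and 9.61% for all genes with enough reads, which had a higher median level. LoGI tumors varied more than HiGI tumors for 12 of the 25 genes and for 6815 of all 14196. The chi-square per degree of freedom had a median of 2.13 in LoGI tumors and 1.39 in HiGI tumors, against 3.69 and 4.23 for all genes with enough reads. In LoGI tumors it exceeded 5 for 9 of the 25 genes and for 5925 of all 14196, and in HiGI tumors for 4 of the 25 and for 6434 of all. It was highest in the LoGI tumors for gene 8, at 106. For genes with fewer than 100 reads in every tumor it was at most 2.13 in LoGI tumors.

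By the quasi-likelihood test of edgeR, adjusted by Benjamini-Hochberg over 24545 genes, 90 genes (0.367%) were higher and 1071 (4.36%) lower in LoGI tumors at an adjusted p under 0.05. Of the 25 genes, 18 were among the 90. All 7 that were not, ranked 9, 15, 16, 17, 22, 23 and 25, had fewer than 100 reads in every tumor. With a log2 fold change of at least 1 as well, the study's threshold, 18 genes (0.0733%) were higher, and 7 of the 25 were among them. As the rule used this same contrast, these counts describe the genes and are no support for them. The log2 fold changes of the 25 genes ran from 0.52 to 1.15 with a median of 0.82, beside a median of 0.00335 over all genes tested.

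The 90 genes and the 25 genes differ mainly by the size of the gap. Of the 72 genes that the test called higher and the rule left out, 61 had enough reads and no overlap between diets but a ratio under 1.25. For 8 genes a tumor had fewer than 20 reads, and for 3 genes the diets overlapped. With each tumor left out in turn, the test called between 11 and 16 of the 25 genes, the fewest without LoGI tumor 19. The number of genes called higher in all was 21 without that tumor.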

How the data were processed

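RNA-sequencing (75 bp single-end, stranded) of 3 HiGI and 3 LoGI tumors was analysed. The authors discarded reads that BBMap placed on the mouse genome alone, ran STAR and RSEM on human GRCh38.p13 for the remaining reads, and deposited the counts per gene as whole numbers that are not normalized. Tool versions, and how RSEM estimates became whole numbers, are not given in the sources used here. Tumors were grouped by the diet in the sample records, and all 6 columns matched a tumor by name. The records give mouse as organism, while the identifiers are human. Of 60649 identifiers, 0 matched the mouse reference tables at hand, so that the gene lists and promoter motifs planned were not analysed here, and genes were named by rank.

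CPM used column totals. The members, lists and tests were chosen with earlier results of these data known. Named genes were planned by gap and LoGI level, and without symbols 2 are given by identifier. Differential expression used edgeR 4.0.16 in R 4.3.3 (TMM, glmQLFit and glmQLFTest, at least 10 reads over the 6 tumors, Benjamini-Hochberg). A run on simulated counts was required only to recover changes larger than those of the members. DESeq2 1.42.0 was an alternative. Counting intervals are exact binomial (scipy 1.17.1). The smallest p that a two-sided exact permutation test of 3 against 3 tumors allows is 0.1. The p-values set the difference between diets against the spread between these tumors, and they cover only 3 tumors per diet.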

Additional observations from a re-analysis of the deposited data

How the results depend on the processing

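The number of genes raised by the rule (25) was 35 with TMM-scaled totals and 36 with DESeq2 size factors, both of which held all 25. It was 49 with a minimum of 10 reads, 12 with 100 reads, 857 with no overlap only and 3 at a ratio of 1.5. With one tumor left out it was 36 (without LoGI tumor 19) to 97 (without HiGI tumor 26), 77 without HiGI tumor 16, 67 without HiGI tumor 20, 68 without LoGI tumor 27 and 62 without LoGI tumor 28. Leaving out a tumor removes a condition, so that this number can only stay or increase and shows no stability.

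The number of genes called higher by edgeR (90) was 239 when genes of 1 read were admitted, 45 when each tumor needed 20 reads and 18 with a log2 fold change of at least 1, and 21 (without LoGI tumor 19) to 128 (without HiGI tumor 26) with one tumor left out. The number called lower (1071) was 403 when each tumor needed 20 reads, which leaves out genes nearly absent on one diet. The other counts stayed within 1.5 times, but with one tumor left out only 20 (without LoGI tumor 19) to 57 (without HiGI tumor 26) of the 90 were called again, 38 of them without HiGI tumor 20 and 45 without HiGI tumor 16. Over all genes, edgeR with DESeq2 size factors called 92 higher, and the DESeq2 Wald test called 133. Of the 25 genes, edgeR called 18 with column totals or DESeq2 size factors, and the DESeq2 Wald test called 17. The rule used this same contrast, so these counts are no support for the 25 genes. None of their 200 log2 fold changes under column totals, DESeq2 size factors or with one tumor left out reversed, and 26 lost the call, all with a tumor left out. Unless a reason stands beside a change, the cause was not tested. The labels give the diets no shared replicate numbers.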
